A study of Homo sapiens with 10 samples.

Results

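The neighbourhood of MYC and PVT1 on the long arm of human chromosome 8 (band 8q24) held 548 of the 161934 ATAC-seq peaks listed for MDA-MB-231 cells, an established line of triple-negative breast cancer. A peak was counted as a member if it started between 125.5 and 130.5 Mb of chromosome 8 in build hg38, a rule that uses position and no measured height. ATAC-seq cuts accessible DNA with the Tn5 transposase, so a peak marks a stretch of open chromatin. The series holds 10 libraries of this line, 5 labelled ARID1A knockout and 5 labelled control, and all carry the background of MDA-MB-231. ARID1A belongs to the BAF form of SWI/SNF, a complex that moves nucleosomes along DNA, and its large protein contacts DNA. The labels give no clone, guide, treatment or time for either group. Separate cultures are not stated for the replicates numbered 1 to 5. The peak list covers the whole series and has 0 columns with a value per library. No comparison of knockout with control was therefore made, no value below has replicate error, and the depth of the libraries is unknown. The list cannot check the genotype or cell type labels of any library. Coordinates are hg38 and 1-based throughout, and no DNA sequence from chromosome 8 is shown.

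MYC encodes a transcription factor of the basic helix-loop-helix leucine zipper family that binds DNA with its partner MAX and drives growth, ribosome production and cell division. It sits in a gene desert, a long stretch with few protein-coding genes, where distant enhancers contact its promoter and different tissues use different enhancers. PVT1, just downstream, is a long noncoding RNA gene that is often gained together with MYC in tumours, breast cancers among them. Its body holds enhancers, and its promoter has been described as competing with the MYC promoter for them. Several other noncoding genes of the desert (PCAT1, CASC8, CASC19, CCAT1, CCAT2, CASC11) are named for prostate, colon or other cancers in which the region is studied. None of this background was measured here.

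The window of 5 Mb overlapped 66 genes of the RefSeq table, of which 6 were protein-coding, 35 were long noncoding RNA genes, 7 were microRNA genes and 17 were pseudogenes. The 6 protein-coding genes were, in order along the chromosome, LRATD2, POU5F1B, MYC, GSDMC, CYRIB and ASAP1. Peaks covered 6.95% of the window. There were 110 peaks per Mb, against 53.3 per Mb over the rest of chromosome 8. Tiled from the same boundaries, chromosome 8 gave 28 windows of 5 Mb with a median of 231.5 peaks, and the MYC and PVT1 window held the most. Among 591 such windows of chromosomes 1 to 22 and X it stood at rank 23 (median 248 peaks, highest 855). By peaks of at least 1000 bases alone, it stood at rank 77. With all peaks counted, it also held the most of 102 windows with at most 10 protein-coding genes, whose median was 101 peaks. Of these windows 19 held no peak at all, and the median of the other 83 was 125 peaks. The limit of 10 genes was not part of the plan, and first place depends on it. A window of chromosome 13 with 13 protein-coding genes (105500000 to 110500000) held 635 peaks. The windows adjoining that of MYC and PVT1 were also dense, with 479 peaks in the 5 Mb before it and 511 in the 5 Mb after it. They overlapped 28 and 16 protein-coding genes. The next windows out held 397 peaks toward the centromere and 232 toward the end of the arm. MDA-MB-231 is aneuploid and copy number was not measured, so open chromatin and extra copies of this arm cannot be told apart in these densities.

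**Figure D1:**
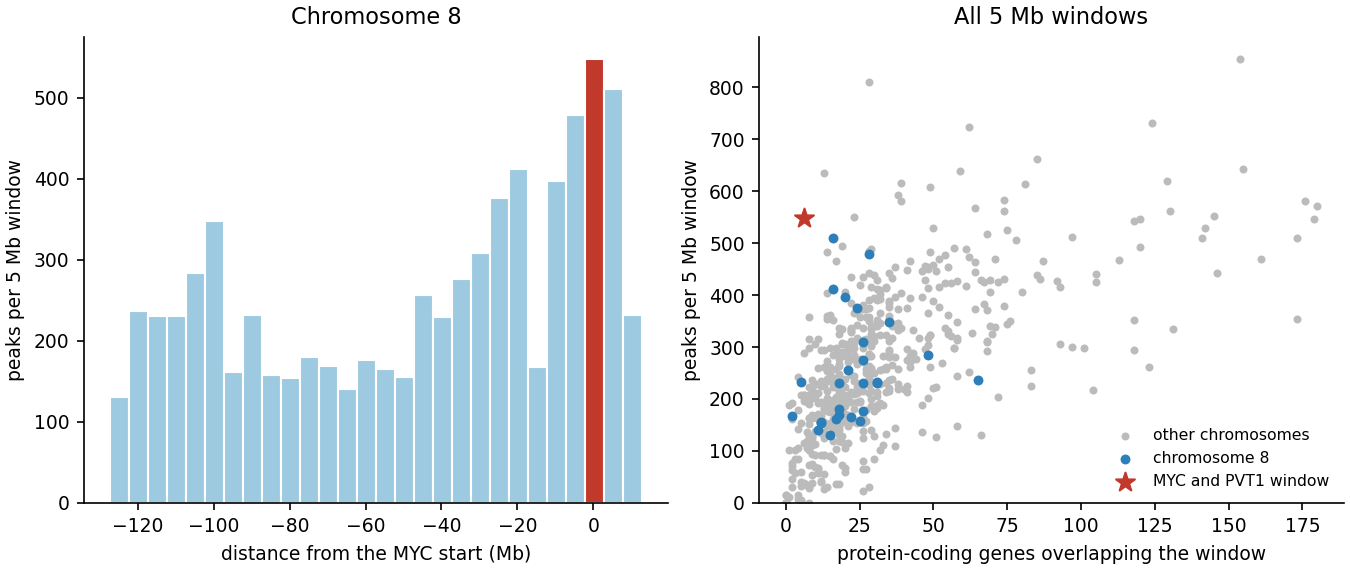
Left, peaks in each 5 Mb window of chromosome 8 by distance of the window from the MYC start in Mb, with the MYC and PVT1 window in red. Right, peaks per window against the number of protein-coding genes it overlaps, with grey points for other chromosomes, blue points for chromosome 8 and a red star for the MYC and PVT1 window, which held 548 peaks with 6 protein-coding genes.

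Around the MYC start itself, open chromatin formed a compact group. A peak of 1498 bases (127735020 to 127736517) covered the annotated start, reaching 414 bases before it and 1083 bases into the gene, and 95.5% of all peaks in the list were narrower. It ended 77 bases before another MYC start in the list, at 127736594. Just upstream, a separate peak of 353 bases (127734028 to 127734380) lay 61 bases from the start of CASC11, a noncoding gene transcribed away from MYC. The CASC11 start is 1467 bases from the MYC start, and 639 bases without a peak separated these promoter peaks. Inside MYC, peaks of 487 bases (127737680 to 127738166) and 358 bases (127738497 to 127738854) followed. A peak of 663 bases (127741756 to 127742418) and another of 817 bases (127742873 to 127743689) lay at the 3' end. The list calls both of them distal intergenic, because its MYC transcript ends at 127740958, whereas the RefSeq gene ends 1993 bases further on, at 127742951. In all, 5 peaks overlapped the RefSeq gene, and their summed width came to 50.9% of its length, the parts outside the gene included.

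On the upstream side of MYC the next peaks were sparse. After the CASC11 promoter peak came 458 bases at 127725781 to 127726238 (centre at -9.42 kb, negative values lying upstream). A pair of 840 and 616 bases followed at -40.4 and -41.2 kb, and then 417 bases at -55.5 kb. On the downstream side, the 59.1 kb from the MYC start to the PVT1 start held 10 peaks, or 169 per Mb. Of these 10 peaks, 5 were those that overlapped MYC itself. The rest lay in the 51572 bases between the MYC end and the PVT1 start. The widest of them, 1652 bases at 127759610 to 127761261, was intergenic and centred 25 kb from the MYC start.

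PVT1 (127794524 to 128101256, plus strand) carried the highest density of the 5 zones into which MYC, PVT1 and GSDMC divide the window, 212 peaks per Mb. Its promoter peak measured 2089 bases (127793751 to 127795839), covered the start and was wider than the peak over the MYC start. Across the 306733 bases of the gene 65 peaks lay in the body, with a summed width of 15.4% of its length. This amounts to 2.12 peaks per 10 kb. Among 4392 genes of at least 100000 bases, whose median was 0.497 and whose 90th percentile was 1.18 per 10 kb, PVT1 stood at rank 17. Among 987 long noncoding RNA genes of that length it was at rank 3 by density and held the most peaks. On chromosome 8 it was at rank 2 of 234 by density. Body counts include peaks shared with overlapping genes and the start peak. Without its start peak, and with those of all other genes kept, PVT1 stood at rank 20.

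**Figure D2:**
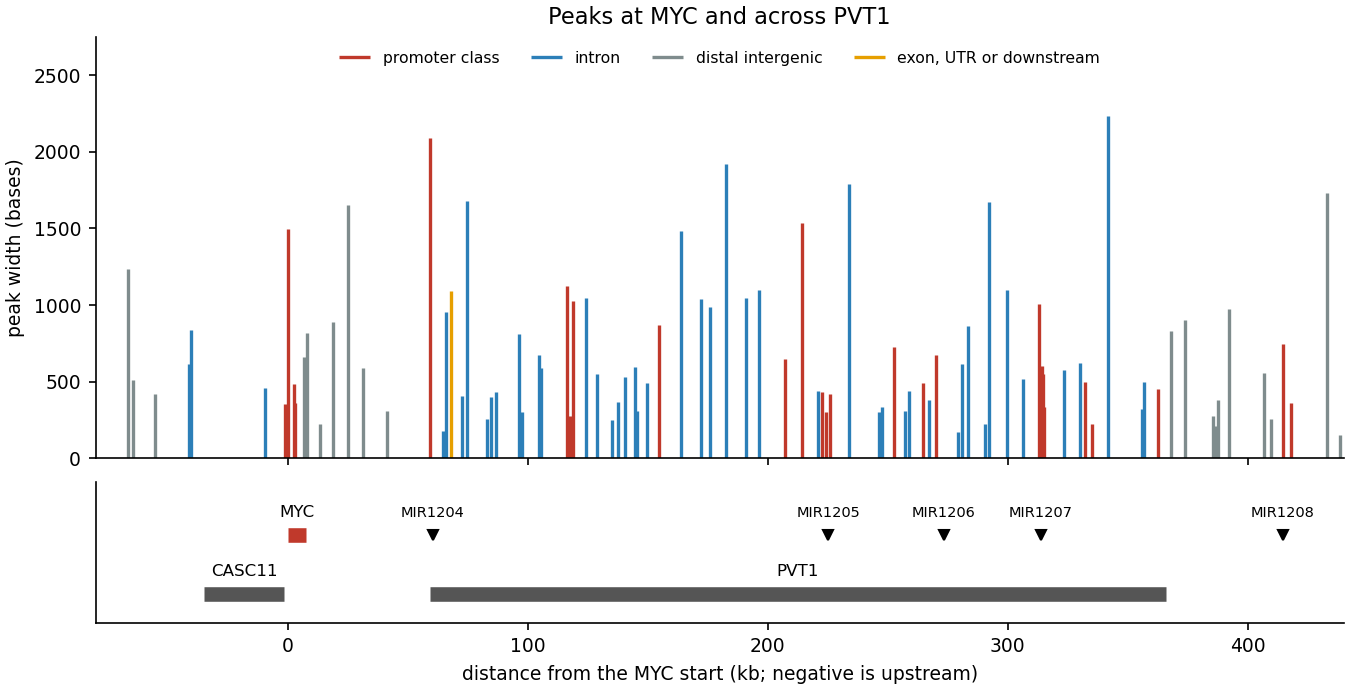
Each vertical line is a peak, placed by the distance of its centre from the MYC start in kb and as tall as the peak is wide in bases, coloured by its class in the list. Below, MYC, CASC11 and PVT1 are drawn to scale and triangles mark microRNA genes. Peaks run through the whole of PVT1, and the widest of them, 2231 bases, stands near its far end.

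Peaks ran through PVT1 without a long break. Successive stretches of 50 kb from its start held 13, 12, 7, 11, 10 and 11 peaks. The stretch with 7 peaks held fewer but covered 8213 bases, more than all the others except the first, which covered 9856. Gaps between neighbouring PVT1 peaks had a median of 3805 bases, and 1 of 64 gaps exceeded 12.5 kb, at 12854 bases. The widest peak of the gene was intronic and lay near its 3' end, 2231 bases at 128075995 to 128078225, centred 342 kb from the MYC start. Other wide intronic peaks were 1918 bases at 127917235 to 127919152, 1791 bases at 127968432 to 127970222, 1680 bases at 127809241 to 127810920 and 1669 bases at 128026778 to 128028446. A peak of 1536 bases (127948902 to 127950437) lay 179 bases from the start of LINC02912, a noncoding gene on the opposite strand inside PVT1. In PVT1 17 of 65 peaks (26.2%, Wilson 95% interval 17.0 to 38.0) were at least 1000 bases wide, against 15.4% (14.6 to 16.2) over the rest of chromosome 8. Outside the promoter class, 12 of 45 PVT1 peaks (26.7%, 16.0 to 41.0) were that wide, against 10.5% (9.68 to 11.3) over the rest of the chromosome. Such intervals reflect only the number of peaks counted. Peaks are not replicates, and the difference was not tested.

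Most of the promoter class inside PVT1 was assigned through short transcripts. The class holds peaks within 3000 bases of a listed start. The list puts 20 of the 65 peaks in it, but 14 of those 20 were assigned through transcripts shorter than 300 bases (59 to 169 bases). Of the 14 peaks, 4 belonged to short transcripts under the PVT1 identifier (ENSG00000249859) and 10 to other small genes in its body, microRNAs among them. Some also lay within 3000 bases of a longer transcript's start. The peak at 127889733 to 127890604 was near a longer one starting at 127890870. That at 127987820 to 127988546 was near one starting at 127989261. The shares given here therefore count the assigned transcript, not dependence on short ones. Such assignments made up 70.0% of the promoter class in PVT1, and 44.4% (4 of 9 peaks) in the adjoining zone from its end to GSDMC. The share was 10.3% from GSDMC to the window's edge, 2.86% upstream of MYC and 7.14% over the rest of chromosome 8. MicroRNA genes MIR1204 to MIR1207 lie within PVT1 and MIR1208 lies beyond its end. A peak of 744 bases (128149941 to 128150684) covered the MIR1208 hairpin. The MIR1207 hairpin was 6 bases from the nearest peak, in a group with widths of 1006, 599, 551 and 334 bases. MIR1204 was 123 bases from the PVT1 promoter peak. The distances were 400 bases for MIR1205 and 2997 bases for MIR1206. A microRNA inside a host gene can be cut from the host transcript, so a peak at a hairpin does not by itself mark a promoter.

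Peaks were more numerous on the downstream than on the upstream side of MYC. Bins of 100 kb from 0 to 400 kb downstream of the start each held 19 to 21 peaks, whereas those from -400 kb to the start held 8 to 11. The 500 kb downstream held 94 peaks and the 500 kb upstream 46, and of these 22 and 3 were at least 1000 bases wide. The median over the 49 complete bins of the window was 10 peaks. Over 30175 bins of 100 kb on all chromosomes the median was 4, and 2.13% held 18 or more. In the window 7 bins did, the 4 just downstream of the MYC start and 3 in the stretch of CYRIB and ASAP1. The asymmetry was not tested, and a difference in copies on either side of MYC cannot be told apart from it.

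**Figure D3:**
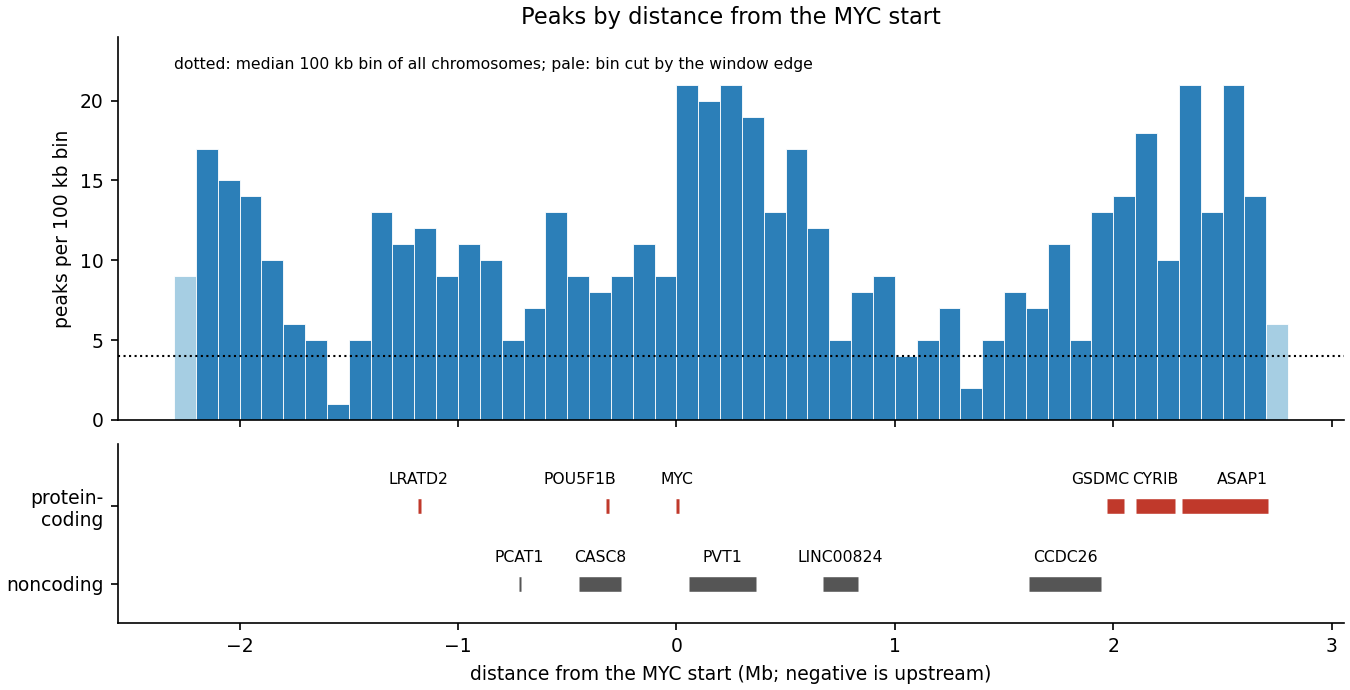
Bars give the number of peaks in bins of 100 kb by distance from the MYC start in Mb, with genes drawn to scale below; the dotted line is the median bin of all chromosomes (4 peaks) and pale bars are bins cut by the window's edges. The 4 bins from the MYC start through PVT1 hold 19 to 21 peaks each, and the lowest bin, from -1600 to -1500 kb, holds 1.

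Upstream of MYC, 2.24 Mb held 219 peaks (98.0 per Mb), of which 110 were distal intergenic, 71 intronic and 35 promoter peaks. Density was uneven, and the outermost part, from the window's edge to -2000 kb, held 41 peaks in 235434 bases (174 per Mb). The long noncoding gene LINC02964 lies there, with 26 peaks in 160228 bases (1.62 per 10 kb). LRATD2, one of the few coding genes of the desert, had the widest peak of the zone, 2536 bases at 126556335 to 126558870, over its start. The next widest there was intronic, 1971 bases at 126734415 to 126736385, centred at -1000 kb in the long noncoding gene LOC105375751. That gene spans 463156 bases and held 44 peaks. POU5F1B, a retrogene copy of the pluripotency factor gene POU5F1, had no peak in its 3778 bases. The nearest peak to its start was 4162 bases away, 422 bases wide (127408864 to 127409285), and covered another listed start of the same gene identifier. The noncoding genes between LRATD2 and MYC differed. CCAT1, known as a transcript of a colon cancer enhancer region, held 4 peaks of 226 to 693 bases in 11887 bases. It lay in a cluster of 13 peaks with CASC19, which held 2 peaks of 619 and 655 bases. PCAT1 held none in 7861 bases, and the nearest peak to its start was 14053 bases away. PCAT1 lies inside LOC105375751, however, and the list gives it the same gene identifier as that gene and CASC21. PRNCR1 and PCAT2, which overlap, shared 1 peak of 766 bases. CASC8 (192464 bases) held 15 peaks and CASC21 (147995 bases) 13, with some shared because the genes overlap. The widest in both was 1891 bases at 127293767 to 127295657. CCAT2, inside CASC8, held 1 peak of 637 bases (127400588 to 127401224), 189 bases from its start. CASC11 held 1 peak in its body, of 458 bases. On the far side of LRATD2, LINC00861 held 1 of 401 bases.

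Beyond PVT1 the density was the lowest of the 5 zones. The 1.6 Mb from the end of PVT1 to GSDMC held 130 peaks (81.0 per Mb), of which 65 were intronic, 47 distal intergenic and 9 in promoters. Their median width was 564 bases against 512 over the rest of chromosome 8. The widest of its peaks measured 1731 bases (128167418 to 128169148). Its largest cluster outside GSDMC, 15 peaks at 128283153 to 128352483, overlapped no gene of the RefSeq table. LINC00824 (159411 bases) held 11 peaks of 231 to 1113 bases. CCDC26, a long noncoding gene in a part of the desert known for MYC enhancers of blood cells, held 23 peaks in 328546 bases, or 0.700 per 10 kb. That is close to LINC00824 (0.690) and CASC8 (0.779), and the widest of its peaks measured 1320 bases (129445602 to 129446921). LINC00977 held 2 peaks, of which that of 174 bases covered its start.

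The gene-bearing end of the window, from GSDMC to the edge, held 124 peaks in 0.795 Mb (156 per Mb). ASAP1, an Arf GTPase-activating protein linked to cell movement, had as many peaks in its body as PVT1, 65, over 391571 bases (1.66 per 10 kb). Its start had no peak across it. The nearest, 1765 bases at 130444017 to 130445781, began 343 bases upstream. Its widest peaks lay inside the gene, 2485 bases at 130356650 to 130359134 and 2086 bases at 130262817 to 130264902. CYRIB, an inhibitor of RAC1-driven actin remodelling formerly called FAM49B, held 24 peaks. The widest of the window, 2616 bases at 129971523 to 129974138, lay 533 bases upstream of a listed CYRIB start. Another of 2428 bases (130014705 to 130017132) covered the outermost start of the gene. GSDMC, a gasdermin, held 14 peaks, with 1414 bases over its start (129786368 to 129787781) and 1362 bases over another of its listed starts (129752730 to 129754091).

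Of the 6 protein-coding genes, 5 had a peak within 1000 bases of the outermost start, POU5F1B being the exception. Elsewhere, 73.4% of 15812 protein-coding genes did. For the 34 long noncoding RNA genes wholly inside the window, strand could be set for 20, and 11 of those 20 had a start peak. They included PVT1, CASC11, CASC19, CCAT2, PRNCR1, LINC00977 and LINC02912 (also called TMEM75). CCAT1, CASC8 and CCDC26 had none within 1000 bases but a peak within 3000. Strand came from transcripts that the list ties to a peak, which favours genes with peaks, so this count was not set against other genes.

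Peaks were grouped into clusters by joining neighbours no more than 12.5 kb apart. The window gave 113 groups, of which 35 had 5 or more peaks and together held 411 of the 548 members (75%). Over all chromosomes 50.9% of peaks lay in clusters of that size. Both shares follow the gap allowed, with 11.5% of members against 8.12% of all peaks at a gap of 5000 bases, and 95.1% against 77.5% at 25000 bases. The cluster of PVT1 was the largest, with 62 peaks over 284 kb (127793751 to 128078225), and stood at rank 20 among 54802 clusters and single peaks of the list. That rank depends on the gap too: the window's largest cluster stood at rank 259 with 5000 bases (7 peaks) and at rank 114 with 25000 bases (93 peaks). On chromosome 8 there were 2 larger clusters, both outside the window. Next came 36 peaks over 186 kb in ASAP1 (130193886 to 130380130). Clusters of 19 peaks each followed, at GSDMC (129681930 to 129787781) and over the 3' part of ASAP1 (130030623 to 130113310). The MYC promoter belonged to a smaller cluster of 12 peaks over 51.3 kb (127725781 to 127777035), separate from that of PVT1 under this rule. In the desert, 16 peaks over 72.4 kb (125767694 to 125840069) overlapped no gene of the table, the widest measuring 1306 bases. A further 16 lay over 92.3 kb around LRATD2 (126488137 to 126580442). The cluster of 14 at 126796431 to 126886352 lay in noncoding genes that the RefSeq table names only by number. These 8 largest clusters, which do not include that of the MYC promoter but do include the intergenic cluster of 15 beyond PVT1, held 197 peaks (35.9%) in 19.7% of the window.

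The longest stretch without a peak was 104 kb (126095696 to 126199454). It was the only gap over 100 kb among 547 in the window, against 174 of 8010 on chromosome 8 as a whole. It was followed, after a single peak of 843 bases, by another of 68.1 kb (126200298 to 126268379). The other 3 of the 5 longest lay between PVT1 and GSDMC, at 73.1 kb (129069212 to 129142318), 52.0 kb (128596877 to 128648876) and 45.2 kb inside CCDC26 (129536495 to 129581660). The median gap of the window was 5890 bases, against 7948 on chromosome 8 and 7670 over all chromosomes.

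In width the window's peaks were near those of other regions. The median width was 527 bases (quartiles 352.75 and 811, range 134 to 2616), against 512 over the rest of chromosome 8 and 540 on the other chromosomes. Promoters held 96 peaks (17.5%, interval 14.6 to 20.9), against 25.2% (24.2 to 26.1) on the rest of chromosome 8. Introns held 251 (45.8%, 41.7 to 50, against 37.6%), many of them in noncoding genes. Distal intergenic peaks numbered 181 (33.0%, 29.2 to 37.1, against 32.6%). Exons held 11, regions just downstream of genes 5, 3' UTRs 3 and 5' UTRs 1. A listed transcript start lay within 27 peaks (4.93%, against 10%), and 103 peaks (18.8%, against 15.0%) were more than 50 kb from any. Promoter peaks had a median of 559.5 bases in the window and 661 on the rest of the chromosome. Intronic peaks had medians of 509 and 472 bases, and distal intergenic peaks 526 and 498. None of these differences was tested.

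**Figure D4:**
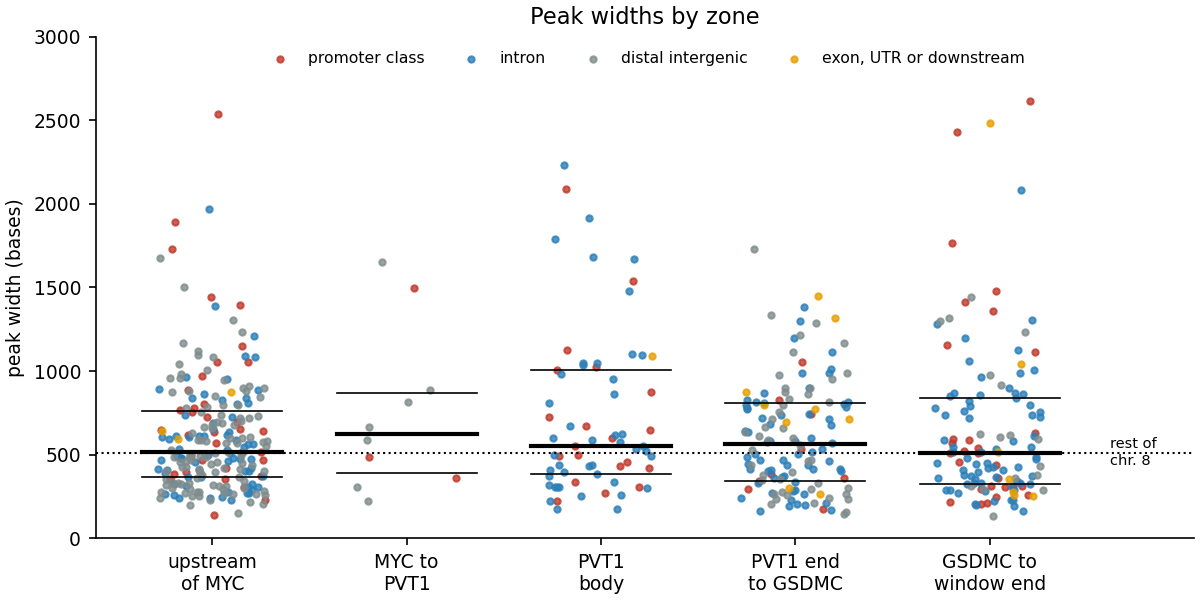
Each point is a peak, placed by zone of the window and by its width in bases, coloured by class and spread sideways for legibility; thick lines are medians, thin lines quartiles and the dotted line is the median over the rest of chromosome 8 (512 bases). Zone medians run from 509 to 625 bases, and the upper quartile is highest in PVT1, at 1006 bases.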

How the data were processed

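The deposited file is 1 list of 161934 peaks with 17 columns. Per the file headers, its values are other measures than counts or signal: the position and width of each peak in bases, its class, and the closest transcript and how many bases away it starts. Per the submitters' processing notes, the tools were Bowtie2 2.3.5.1 and MACS2 2.2.6 and the build was hg38. Not given in the sources used here are the peak threshold, duplicate handling, Tn5 shift, merging across libraries and transcript set, all of which can change peak number, width and class.

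Peaks were counted in the window, in zones bounded by RefSeq genes (GRCh38.p14), in bins by peak centre and in gene bodies by overlap. Promoter peaks are within 3000 bases of a listed start. Gene strand came from listed transcripts with both ends, or failing that either end, within 500 bases of the gene's, and on other chromosomes from a RefSeq promoter table. A peak within 1000 bases of the 5' boundary was a start peak. Overlap and cluster counts were tested on simulated data. Python 3.11.15, numpy 2.4.6 and pandas 2.3.3 were used. The planned test of knockout against control needed counts per library and was not run. Named were all coding genes, 15 noncoding genes and microRNAs fixed by list, the widest peaks, those nearest MYC, the 8 largest clusters and the longest gaps; other peaks and genes were named after their values were seen. The members and lists were chosen with earlier results of these data known.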

Additional observations from a re-analysis of the deposited data

How the results depend on the processing

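No paired analysis was possible because deposited values are not split by library, so neither a replicate block nor leaving out each library could be run. Of 37 alternatives, 20 stayed within 1.5 times the reported count or within the reported value's 95% interval. The other 17 follow. With peaks of at least the median width only, the window held 268 peaks, the 500 kb downstream and upstream of MYC held 50 and 19, and PVT1 held 34, with 0.592% of long genes denser, against 0.364% as reported. With peaks of at least 1000 bases, the window held 77, and 12.9% of 5 Mb windows held more, against 3.72% as reported. The counts are lower because fewer peaks enter. That does not account for the percentages, since the same width limit was applied to all windows and genes. By peaks of at least 1000 bases the window stood out less. Among genes of at least 50 kb, 0.912% were denser than PVT1. The promoter share was 11.3% within 1000 bases. It was 13.5% when peaks assigned through transcripts under 300 bases were left out of the class, an alternative added after the data were examined. Peaks left out were not reassigned, though some also lie near a longer transcript's start. Clusters of 5 or more numbered 11 with a gap of at most 5000 bases, the largest holding 7 peaks at rank 259 of the list, and 11.5% of members lay in them. They numbered 21 with 25000 bases, where the clusters of MYC and PVT1 joined into 1 of 93 peaks at rank 114, and 95.1% of members lay in them. Depth is unknown, so absence from the list does not show closed chromatin.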
